A study of Mus musculus with 6 samples.

Results

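The Wnt genes described here are 50 of the 53801 genes in a deposited count table, followed in mouse fat cell cultures with and without an intact Ythdf1 gene. They were taken by name, from a list drawn up with earlier results of these data known. It held 10 Wnt ligands, 9 Frizzled receptors, 5 co-receptors, 6 genes of the R-spondin axis and 8 secreted antagonists. It also held 4 genes of beta-catenin and its destruction complex, 4 TCF/LEF transcription factors, 2 Naked inhibitors and 2 genes needed for ligand secretion. Each name matched 1 row of the table. The cells were stromal vascular fraction cells, the mixed non-adipocyte cells of fat tissue, from the inguinal fat of mice labelled wild type or Ythdf1 knockout, and all of them were grown in culture and taken after 4 days of adipogenic induction. Each genotype had 3 libraries, called biological replicates by the series. Strain, sex, age, the part of Ythdf1 that was removed, and whether it was removed in every tissue are not stated in the labels. The product of Ythdf1 is a reader of m6A, a methyl mark on RNA, found in the cytoplasm.

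Wnt proteins are secreted, lipid-modified signals. They bind a Frizzled receptor together with the co-receptor Lrp5 or Lrp6, which stops the destruction complex from degrading beta-catenin, so that beta-catenin can act with TCF/LEF factors on target genes. Other Wnt proteins signal through the receptors Ror1, Ror2 and Ryk without beta-catenin. In fat, Wnt10b is known as a signal that holds precursor cells back from becoming adipocytes, and its level is known to decline as they differentiate.

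Ythdf1 itself was at 45.1, 42.8 and 43.5 CPM (read counts scaled to library size, TMM-adjusted) in knockout replicates 1 to 3 and at 63.0, 62.1 and 60.4 CPM in wild-type replicates 1 to 3. The log2 fold change, here and below given with its SE, was -0.50 ± 0.08 (adjusted p = 0.000378, quasi-likelihood test of edgeR). The knockout values were all lower, but most of the transcript signal remained, and whole-gene counts check the labels only in part. Library totals ran from 16619605 to 20089138 counts, and 3 counts corresponded to between 0.149 and 0.181 CPM. The cultures also differed in their cell type markers. The summed level of 11 adipocyte markers was 11666 to 16137 CPM in knockout and 2080 to 3247 CPM in wild type, with 10 of 10 tested higher and Lep at 2 to 11 counts. Progenitor markers fell for 6 of 9 (summed 2354 to 2523 against 3061 to 3213 CPM), myofibroblast markers for 6 of 6 (167 to 194 against 843 to 1223 CPM) and cell division genes for 6 of 6 (186 to 302 against 422 to 545 CPM). Macrophage markers rose for 7 of 8 (142 to 362 against 48.8 to 58.1 CPM), with the highest sum in knockout replicate 3. Colon epithelium markers fell for 9 of 10 tested, from 73.3 to 89.8 CPM in wild type to 25.2 to 29.3 CPM in knockout. Most of the knockout sum was Muc2 (mean 13.8 CPM, against 17.3 in wild type) and Lgals4 (10.9 against 8.55, not called). Others were nearly absent in knockout, such as Dmbt1 (0.330 against 15.5 CPM) and Lypd8 (0.468 against 15.1 CPM). Agr2 had 0 counts in each knockout library and 36 to 42 in the wild-type libraries. All 6 lymphocyte markers were too low to test, with summed levels of at most 0.629 CPM. In bulk RNA, fewer cells of a type and less RNA per cell cannot be told apart, and the part of these shifts in the results below was not tested.

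Of the 50 members, 42 passed the low-count filter, and 18 of these fell while 4 rose in the knockout at an adjusted p of 0.05 (edgeR's quasi-likelihood test, Benjamini-Hochberg adjustment over all 14816 genes tested). That is 52.4% of the tested members, against 44.3% called among all genes tested. By direction, 42.9% of the members fell against 21.7% of all genes, and 9.52% rose against 22.6% of all genes. Falls of at least 2-fold were found for 10 members (23.8%, against 6.69% of all genes), and no member rose by that much. The median log2 fold change of the tested members was -0.34, beside 0.01 over all genes tested. It was -0.20 without knockout replicate 2 and -0.22 without wild-type replicate 2. The 3 knockout values lay wholly below the 3 wild-type values for 18 tested members and wholly above them for 5. Of all genes tested, 55.2% did not overlap in either direction and 27.3% lay wholly below.

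Falls were called among the ligands, secretion genes, Frizzled receptors, co-receptors, R-spondin axis and secreted antagonists. Their share ran from 25.0% of tested genes (R-spondin axis) to 83.3% (secreted antagonists), against 21.7% of all genes tested. In the R-spondin axis this was 1 gene of 4, near the share of all genes, and the median log2 fold change there was 0.12. These groups are small, with 2 to 8 tested genes each. Wnt10b, Wnt2 and Wnt5a fell among the ligands, Wls among the secretion genes, Fzd1, Fzd2, Fzd5 and Fzd7 among the Frizzled receptors, Ror1, Ror2 and Ryk among the receptors of beta-catenin-independent signals, Rspo3 among the R-spondins, and Sfrp1, Sfrp2, Frzb, Dkk2 and Dkk3 among the antagonists. Among the Naked genes, Nkd2 fell. The 4 members that rose were the receptor gene Fzd4, the co-receptor gene Lrp5, the acyltransferase gene Porcn and the transcription factor gene Tcf7l2. None of the 4 genes for beta-catenin and the destruction complex was called.

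**Figure D1:**
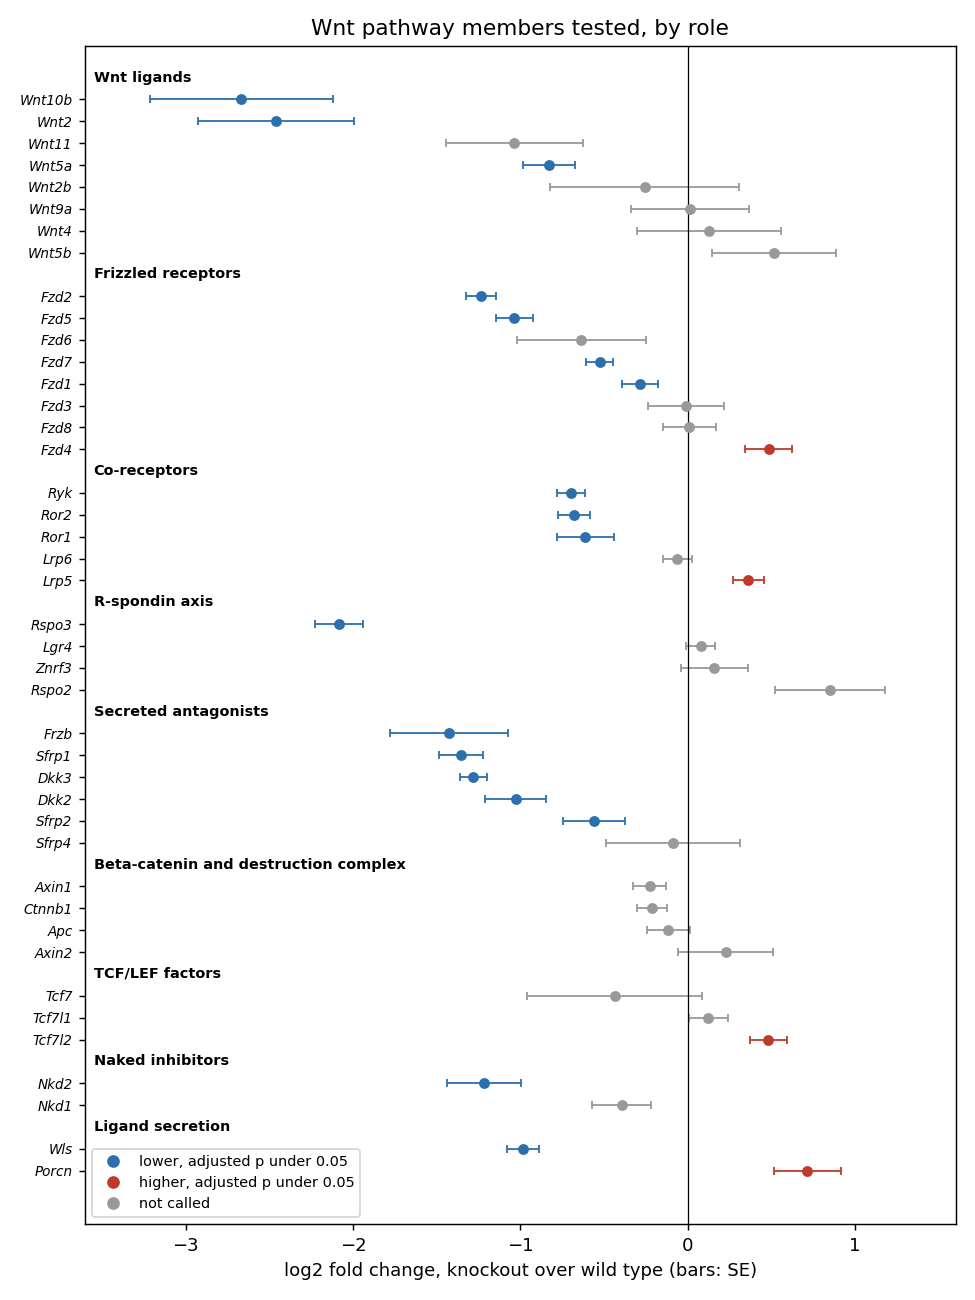
Log2 fold change, knockout over wild type, of the 42 tested members (points) with its standard error (bars), grouped by role; blue and red mark members called lower and higher, grey those not called. Blue points lie in every group but those of beta-catenin and of the TCF/LEF factors, from -2.67 for Wnt10b to -0.29 for Fzd1, and the 4 red points lie between 0.36 and 0.71.

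Promoter windows, 250 bases before to 50 after a start site, were at hand in RefSeq (GRCm38.p6) for 33 members (43 windows). Both strands were searched for the TCF/LEF core CTTTGA, for a C/EBP-type site TTGCNNAA and for the DR1 repeat bound by nuclear receptors such as PPARG. The TCF/LEF core was found in 6 of the 43 windows, where 16.0% of 32851 windows of all genes hold it. It lay before 3 of the 13 members with a window that fell (Frzb, Fzd1 and Ror1). The C/EBP-type letters were in 3 of the 43 windows (Fzd1, Lgr4 and Sfrp2), against 10.8% of all windows. The DR1 repeat was in 0 of 43, against 0.0396% of all. At that share a match in 43 windows was unlikely for any genes, so the 0 does not set the members apart. The median GC content was 66.3% in the members' windows and 52.7% in all windows. A few windows are printed 5′ to 3′ on the strand of the gene, in lower case with matches in capitals: Wnt10b as the largest fall, Frzb and Ror1 as members that fell with a TCF/LEF core, Sfrp2 as a member that fell with a C/EBP-type match, and Fzd4 as the Frizzled gene that rose.
Wnt10b (chr15:98778101-98778400, minus strand, no match): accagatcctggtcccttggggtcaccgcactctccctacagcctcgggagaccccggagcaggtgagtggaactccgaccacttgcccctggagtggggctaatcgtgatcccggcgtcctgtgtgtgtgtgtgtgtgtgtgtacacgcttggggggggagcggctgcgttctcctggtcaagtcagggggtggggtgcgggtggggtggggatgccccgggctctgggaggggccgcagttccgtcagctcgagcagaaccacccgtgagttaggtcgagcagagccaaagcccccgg
Frzb (chr2:80447347-80447646, minus strand, TCF/LEF core 95 bases before the start): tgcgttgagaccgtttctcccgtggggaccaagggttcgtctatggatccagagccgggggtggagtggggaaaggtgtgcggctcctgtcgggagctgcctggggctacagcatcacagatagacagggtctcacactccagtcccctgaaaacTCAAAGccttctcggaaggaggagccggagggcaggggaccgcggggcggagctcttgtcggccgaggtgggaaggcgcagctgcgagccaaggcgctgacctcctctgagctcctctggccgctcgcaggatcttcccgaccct
Ror1 (chr4:100095541-100095840, plus strand, TCF/LEF core 205 bases before the start): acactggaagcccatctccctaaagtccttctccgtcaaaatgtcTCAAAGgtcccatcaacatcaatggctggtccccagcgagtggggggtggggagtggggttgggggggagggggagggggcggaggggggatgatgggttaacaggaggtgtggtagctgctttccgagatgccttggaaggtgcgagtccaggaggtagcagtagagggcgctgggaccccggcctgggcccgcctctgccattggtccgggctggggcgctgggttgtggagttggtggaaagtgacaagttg
Sfrp2 (chr3:83766071-83766370, plus strand, C/EBP-type match 45 bases before the start): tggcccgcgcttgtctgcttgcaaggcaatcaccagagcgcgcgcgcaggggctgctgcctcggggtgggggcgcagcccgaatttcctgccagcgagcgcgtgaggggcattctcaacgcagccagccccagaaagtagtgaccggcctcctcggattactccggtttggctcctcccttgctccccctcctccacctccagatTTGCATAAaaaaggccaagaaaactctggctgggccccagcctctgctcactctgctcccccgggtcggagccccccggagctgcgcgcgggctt
Fzd4 (chr7:89404116-89404415, plus strand, no match): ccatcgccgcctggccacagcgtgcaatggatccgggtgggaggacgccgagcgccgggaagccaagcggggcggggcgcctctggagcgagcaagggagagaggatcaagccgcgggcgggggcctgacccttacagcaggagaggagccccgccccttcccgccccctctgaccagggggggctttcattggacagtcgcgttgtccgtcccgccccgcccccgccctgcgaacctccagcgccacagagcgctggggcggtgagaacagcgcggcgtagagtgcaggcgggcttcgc
A match is a run of letters and no measure of binding, and the absence of one says only that these letters are not in the window.

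Among the Wnt ligands, 3 of 8 tested fell and 0 rose (37.5% called, under the 44.3% of all genes tested). The median log2 fold change was -0.54 (-0.28 without knockout replicate 2 and -0.36 without wild-type replicate 1). Wnt10b (chr15:98770712-98778150 in GRCm38, minus strand, protein-coding) was at 0.275, 0.0568 and 0.146 CPM (knockout) against 1.24, 1.11 and 0.800 CPM (wild type). In counts these were 5, 1 and 3 against 22, 18 and 14, so that no knockout library came near the lowest wild-type one. The log2 fold change was -2.67 ± 0.55 with an edgeR adjusted p of 0.00211, a level 6.35-fold lower. Wnt2, a ligand of the beta-catenin branch, was at 0.440, 0.455 and 0.195 CPM in knockout against 2.77, 2.04 and 1.20 CPM in wild type (8, 8 and 4 against 49, 33 and 21 counts). Its groups did not overlap either, with a log2 fold change of -2.46 ± 0.47 and an edgeR adjusted p of 0.00126.

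Wnt5a, the ligand best known for signalling through Ror2 without beta-catenin, was at 12.2, 8.24 and 9.89 CPM in the knockout and 19.0, 19.0 and 15.8 CPM in the wild type. All knockout values were lower, and the log2 fold change was -0.83 ± 0.16 (edgeR adjusted p = 0.00125). Wnt9a was at 2.75, 2.16 and 3.27 CPM against 4.35, 1.98 and 1.77 CPM, overlapping, with a log2 fold change of 0.01 and a 95% interval from -0.76 to 0.78. Wnt11 had a log2 fold change of -1.04 ± 0.41 and missed the threshold (edgeR adjusted p = 0.0605). It passed in 7 of 14 other settings, with adjusted p-values down to 0.00441 without knockout replicate 2, whose 2.50 CPM lay among the wild-type values of 2.40 to 3.96 CPM. Wnt2b, Wnt4 and Wnt5b, all below 2 CPM, had log2 fold changes between -0.26 and 0.52 and were not called. Wnt6 (11 counts over all 6 libraries) and Wnt10a (1 count) were too low to test.

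Compared per kilobase of exon (RPKM), Wnt5a was the most abundant of the 10 ligands in each genotype, at 1.29 ± 0.251 RPKM in knockout and 2.29 ± 0.239 RPKM in wild type (mean ± SD, n = 3), and Wnt10b reached only 0.0468 ± 0.0322 and 0.309 ± 0.067 RPKM. Wnt16, a ligand outside the 50 that was looked at after its values had been seen, stood above them at 5.42 ± 0.851 and 4.30 ± 0.462 RPKM. It was not called (log2 fold change 0.34 ± 0.14, edgeR adjusted p = 0.065), but passed in 3 other settings, with no low-count filter (0.0342), with the library suffix as a term (0.025) and without knockout replicate 2 (0.00926). Of the summed RPKM of these 11 ligands, Wnt16 made up 56.6% to 63.2% in knockout against 37.8% to 46.6% in wild type. Wnt2 made up 0.899% to 2.56% against 6.54% to 10.5%, and Wnt5a 13.2% to 16.1% against 20.8% to 24.8%. Shares of a sum move with every other member, so they describe the mixture of ligand transcripts and not the change of a single gene.

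The 2 genes that ligand-producing cells need to release Wnt proteins moved in opposite directions. Both were called (100% of 2 tested, against 44.3% of all genes tested). Wls (chr3:159839672-159938664, plus strand), whose membrane protein carries lipidated Wnt to the cell surface, was at 151, 149 and 143 CPM (knockout) against 314, 307 and 257 CPM (wild type). The knockout libraries were close together and far below each wild-type library, with a log2 fold change of -0.98 ± 0.10 (edgeR adjusted p = 1.31e-05). Porcn, whose enzyme attaches the lipid to Wnt proteins, was at 16.4, 19.0 and 12.9 CPM in the knockout and 8.03, 8.53 and 12.9 CPM in the wild type. Knockout replicate 3 and wild-type replicate 3 were nearly level, and the rise of 0.71 ± 0.20 on the log2 scale (edgeR adjusted p = 0.0136) was no longer called without wild-type replicate 1 (0.0527) or 2 (0.0608).

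**Figure D2:**
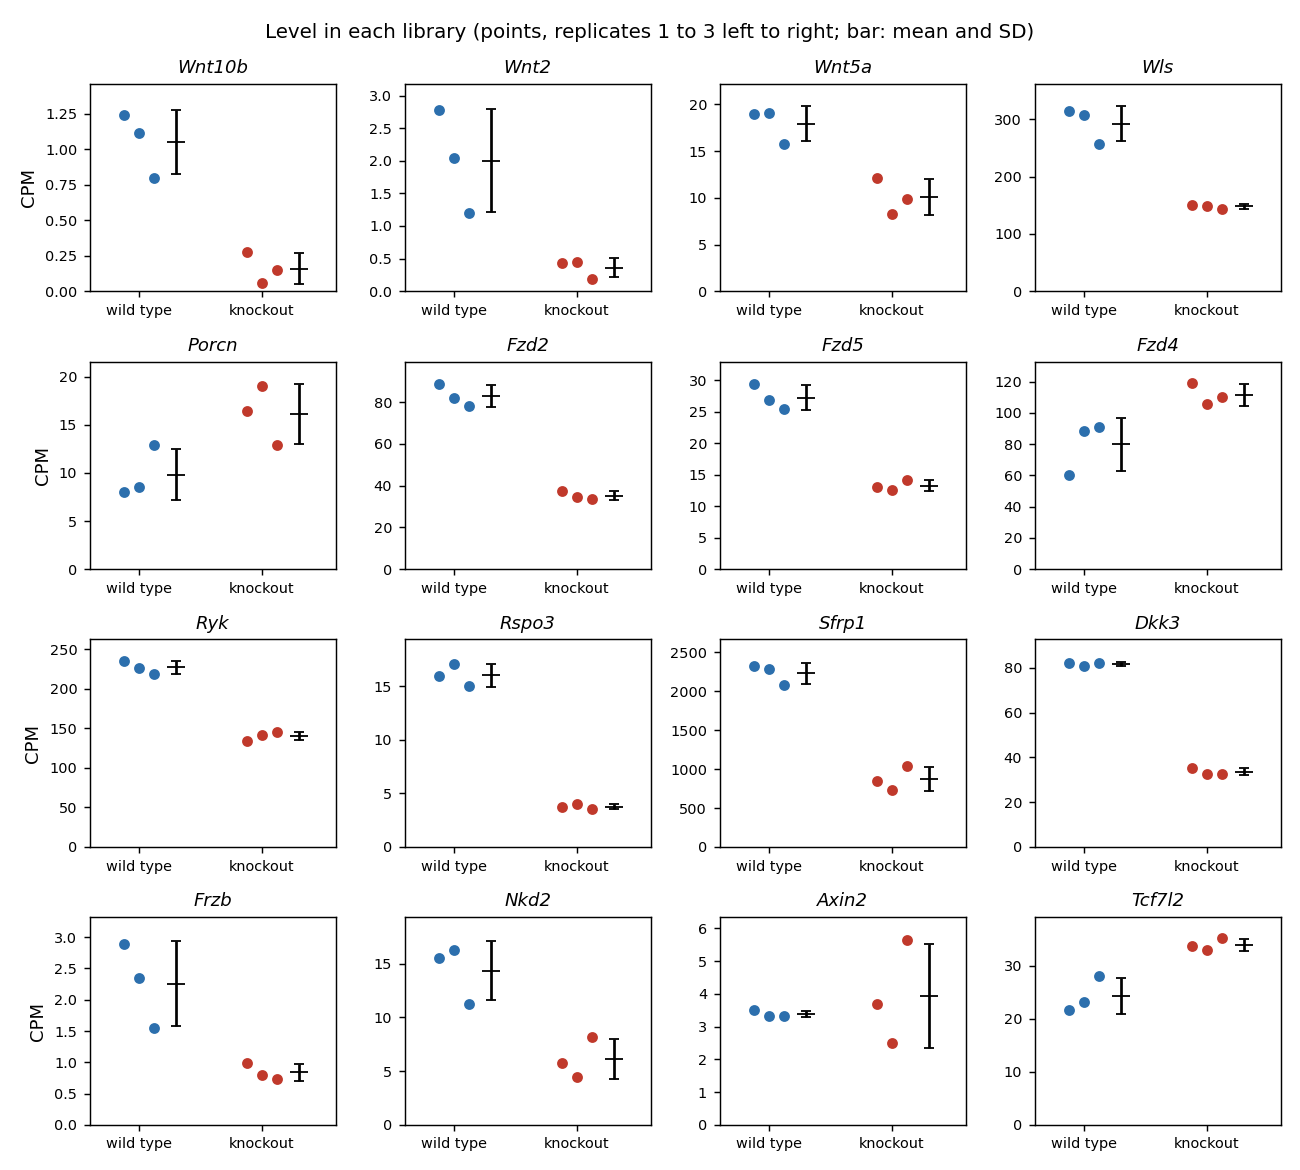
CPM of 16 members in each library (points, replicates 1 to 3 from left to right, blue wild type and red knockout) with mean and SD (bars) beside them; each panel has its own axis from 0. The genotypes are apart in every panel but that of Axin2, where knockout replicates 2 and 3, at 2.50 and 5.65 CPM, enclose the wild-type values, and Porcn is nearly level in the replicates 3.

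Most of the Frizzled genes that changed fell, and the gene Fzd4 rose. Their summed level was 264 to 289 CPM in knockout and 319 to 355 CPM in wild type. Of 8 tested, 4 fell while 1 rose (62.5% called, against 44.3% of all genes tested). Fzd2 (chr11:102604396-102608058) was at 37.5, 34.5 and 33.5 CPM (knockout) against 88.4, 81.9 and 78.1 CPM (wild type). Each knockout library was below 40 CPM and each wild-type library above 75 CPM, with a log2 fold change of -1.24 ± 0.09 and an edgeR adjusted p of 1.58e-06. Fzd5 was at 13.1, 12.6 and 14.2 CPM against 29.4, 26.9 and 25.4 CPM, again without overlap (log2 fold change -1.04 ± 0.11, edgeR adjusted p = 2.11e-05). Fzd5 is also made in gut lining, and the colon epithelium markers fell in the same libraries. Their sum over 11 genes was 73.3 to 89.8 CPM in wild type and 25.2 to 29.3 CPM in knockout, there mostly Muc2 and Lgals4. The part of these markers in the fall of Fzd5 was not tested.

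Fzd4, which also serves as the receptor of the ligand norrin, was at 119, 105 and 110.2 CPM in the knockout and 60.4, 88.4 and 90.6 CPM in the wild type. All knockout values were higher. Wild-type replicate 1, the library with the lowest adipocyte marker sum (2080 CPM), was also the lowest for Fzd4. Among the knockout libraries, replicate 2 had the highest marker sum (16137 CPM) and the lowest Fzd4 value. A link between Fzd4 and these markers was not tested. The log2 fold change was 0.48 ± 0.14 (edgeR adjusted p = 0.0165), and the call ended without knockout replicate 1 (0.0602) or 2 (0.0526). Fzd1 was at 54.3, 46.7 and 60.0 CPM (knockout) against 58.5, 69.0 and 68.9 CPM (wild type). These values overlapped, and the call was the weakest among the members (log2 fold change -0.29 ± 0.11, edgeR adjusted p = 0.0494). It was lost in 7 of 14 other settings, among them DESeq2 (0.055), limma-voom (0.0547) and the removal of knockout replicate 1 or 2 or wild-type replicate 2 or 3 (0.117 to 0.165). Fzd7 fell by 0.53 on the log2 scale, from 67.1 ± 2.38 to 46.6 ± 2.08 CPM, without overlap. Fzd3, Fzd6 and Fzd8 were not called, with log2 fold changes from -0.64 to 0.01, and Fzd9 had 2 counts in all 6 libraries.

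Per length, the order of the 4 leading receptors turned over between the genotypes. In wild type Fzd2 stood first at 22.6 ± 1.43 RPKM, followed by Fzd1 (15.6 ± 1.44) and Fzd7 (14.8 ± 0.525), which did not differ beyond their spread, and by Fzd4 (11.9 ± 2.51). In knockout Fzd4 stood first at 16.6 ± 1.02 RPKM, above Fzd1 (12.8 ± 1.59), while Fzd7 (10.3 ± 0.459) and Fzd2 (9.60 ± 0.570) were within about their SD of each other. Fzd2 made up 29.2% to 35.3% of the summed Frizzled RPKM in wild type and 16.7% to 18.4% in knockout. For Fzd4 the shares were 16.5% ± 2.90 and 30.7% ± 0.819 (SD, n = 3), so that the genotypes did not overlap for either gene. The shares of Fzd1 (20.4% to 22.5% in wild type and 21.7% to 26.1% in knockout) overlapped.

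**Figure D3:**
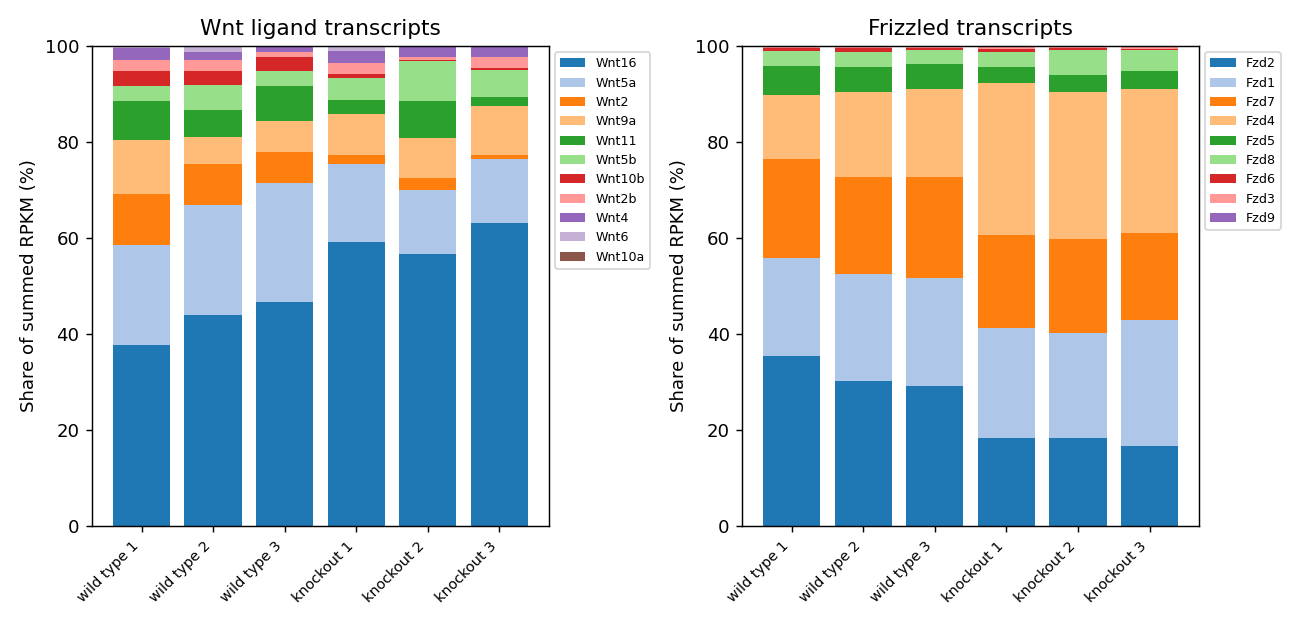
Share (%) of each gene in the summed RPKM of the Wnt ligands, Wnt16 included (left), and of the Frizzled receptors (right), 1 stacked bar per library. In knockout the segments of Wnt16 (56.6% to 63.2%) and Fzd4 (mean 30.7%) are longer than in wild type, and those of Wnt5a and Fzd2 are shorter.

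Among the co-receptors, Lrp5 rose and the 3 receptors of beta-catenin-independent signals fell. Ryk, a Wnt-binding receptor of the pseudokinase class, was at 135, 141 and 145 CPM in the knockout and 236, 227 and 218 CPM in the wild type. The groups were far apart for their spread, with a log2 fold change of -0.70 ± 0.08 and an edgeR adjusted p of 5.01e-05. Ror2, a receptor of Wnt5a, fell from 30.1 ± 0.538 to 18.8 ± 0.618 CPM (log2 fold change -0.68 ± 0.09). Ror1 fell from 80.4 ± 19.9 to 52.5 ± 6.58 CPM (log2 fold change -0.61 ± 0.17, edgeR adjusted p = 0.0163), and its call ended without knockout replicate 2 (0.114). Wild-type replicates differed for Ror1, with 62.7, 76.6 and 102 CPM.

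Lrp6, the co-receptor most studied with Lrp5 in beta-catenin signalling, was at 169, 157 and 178 CPM (knockout) against 168, 184 and 173 CPM (wild type). These ranges overlapped in part, and the 95% interval of the log2 fold change ran from -0.25 to 0.13. Lrp5 averaged 126 ± 10.5 CPM (knockout) against 98.1 ± 7.36 CPM (wild type), 0.36 ± 0.09 higher on the log2 scale (edgeR adjusted p = 0.0081). Per kilobase of merged exons, Lrp5 stood at 13.0 ± 1.08 RPKM and Lrp6 at 12.3 ± 0.780 RPKM in knockout, and 10.1 ± 0.756 and 12.8 ± 0.604 RPKM in wild type. The merged exons of Lrp6 span 13672 bases and its longest transcript 9368, against 9738 and 8893 for Lrp5. Their order in knockout therefore depends on the length used.

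R-spondins strengthen Wnt signals by binding Lgr receptors and so removing the ubiquitin ligases Znrf3 and Rnf43, which clear Frizzled from the cell surface. In this axis the R-spondin gene Rspo3 (chr10:29452416-29535867) was the only member called of 4 tested (25.0%, under the 44.3% of all genes tested). It was at 3.74, 4.03 and 3.56 CPM in the knockout and 15.9, 17.1 and 15.03 CPM in the wild type. Replicates varied by little and the gap between genotypes was wide, with a log2 fold change of -2.09 ± 0.14 and an edgeR adjusted p of 1.35e-06, a level 4.24-fold lower. Rspo2 went the other way in each library, with 1.70, 2.22 and 1.71 CPM against 0.848, 1.30 and 0.972 CPM, but missed the threshold (log2 fold change 0.85 ± 0.33, edgeR adjusted p = 0.0545). It passed with a filter of 1 CPM in 3 samples (0.0441). The receptor gene Lgr4 was at 68.9, 62.6 and 60.9 CPM (knockout) against 57.3, 64.5 and 60.3 CPM (wild type), and Znrf3 at 6.82, 7.22 and 5.90 against 6.79, 4.39 and 6.63 CPM. Both overlapped, with 95% intervals of the log2 fold change from -0.11 to 0.27 and from -0.28 to 0.60. Rspo1 and Rnf43 had 2 and 10 counts over all libraries and were not tested.

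The secreted antagonists held the most abundant transcript of the members and the lowest median change of the groups with more than 2 tested genes. Of 6 tested, 5 fell and 0 rose (83.3% called, against 44.3% of all genes tested), and the median log2 fold change was -1.16. Sfrp1 (chr8:23411502-23449632), which binds Wnt proteins outside the cell, was at 841, 736 and 1039.7 CPM in the knockout and 2324, 2290.2 and 2080.0 CPM in the wild type. The highest knockout value, in replicate 3, was still below the lowest wild-type value, with a log2 fold change of -1.36 ± 0.13 and an edgeR adjusted p of 1.12e-05. Per length Sfrp1 stood at 510.4 ± 30.2 RPKM in wild type and 199 ± 35.3 RPKM in knockout, above every other member in each genotype. Sfrp2, from the same family, was at 101, 89.5 and 141 CPM against 129.7, 179.6 and 178.8 CPM. The groups overlapped through knockout replicate 3, and the fall of 0.56 ± 0.18 on the log2 scale (edgeR adjusted p = 0.0365) was lost without knockout replicate 1 (0.108) or 2 (0.168) or wild-type replicate 2 (0.104) or 3 (0.0893).

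Dkk3, a divergent member of the Dickkopf family, was at 35.4, 32.6 and 32.7 CPM (knockout) against 82.1, 80.6 and 82.1 CPM (wild type). It was the most evenly separated of the antagonists, with a log2 fold change of -1.28 ± 0.08 and an edgeR adjusted p of 8.46e-07. Dkk2, which acts on Lrp5 and Lrp6, was at 7.37, 8.69 and 5.85 CPM against 18.2, 13.2 and 13.2 CPM, without overlap (log2 fold change -1.03 ± 0.18, edgeR adjusted p = 0.000855). Frzb, another Wnt-binding protein of the Sfrp family, was at 0.990, 0.795 and 0.731 CPM against 2.88, 2.35 and 1.54 CPM (18, 14 and 15 against 51, 38 and 27 counts), also without overlap. Its log2 fold change was -1.42 ± 0.35 (edgeR adjusted p = 0.00649). Sfrp4 was at 1.48, 1.19 and 1.80 CPM against 2.49, 1.42 and 0.857 CPM, overlapping, with a 95% interval of the log2 fold change from -0.96 to 0.79. Sfrp5 and Wif1 had 2 and 9 counts over the 6 libraries.

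**Figure D4:**
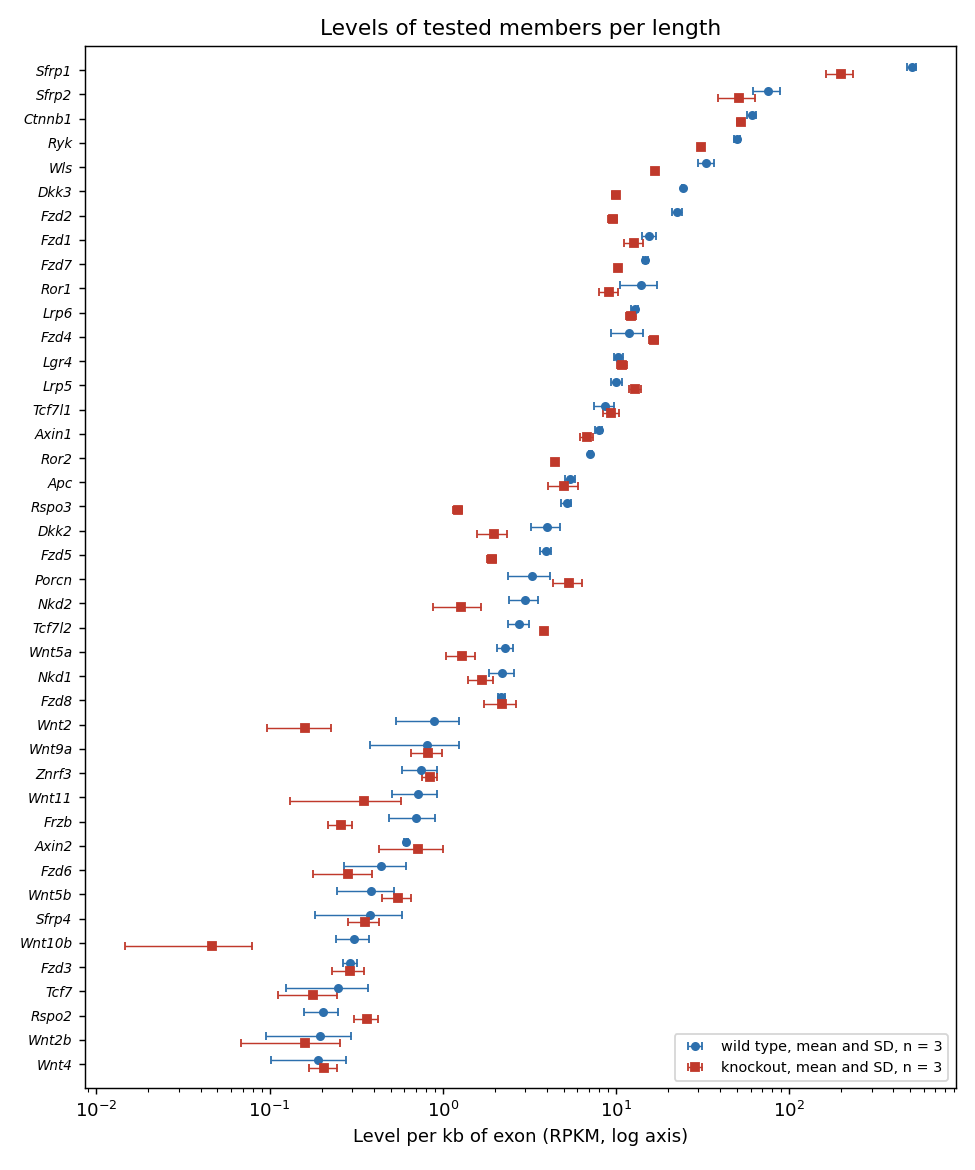
Level per kilobase of exon (RPKM, log axis) of the 42 tested members, ordered by the wild-type mean; circles are wild type and squares knockout, with the SD over 3 libraries as bars. Sfrp1 is highest in each genotype (510.4 and 199 RPKM), and the widest gaps are those of Wnt10b, Wnt2 and Rspo3.

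The core of the pathway inside the cell differed by less. The beta-catenin gene Ctnnb1 was at 272, 259 and 286 CPM in the knockout and 321, 331 and 297 CPM in the wild type. All knockout values were lower, but the difference missed the threshold (log2 fold change -0.21 ± 0.09, edgeR adjusted p = 0.0763). It passed under upper-quartile scaling (0.0287) and DESeq2 (0.0478). Apc, a scaffold of the destruction complex, was at 81.4, 64.8 and 97.0 CPM against 84.4, 94.8 and 84.4 CPM, with the wild-type values inside the knockout range. Axin1 was at 24.4, 25.2 and 28.5 against 29.0, 32.0 and 30.4 CPM and was not called (edgeR adjusted p = 0.086), although it passed under upper-quartile scaling (0.0347) and without knockout replicate 3 (0.0381).

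Tcf7l2, the TCF factor that partners beta-catenin in many tissues, was at 33.7, 32.9 and 35.2 CPM (knockout) against 21.7, 23.2 and 28.1 CPM (wild type). The knockout values were all higher, with a log2 fold change of 0.48 ± 0.11 and an edgeR adjusted p of 0.00437. Of 3 TCF/LEF genes tested, Tcf7l2 was the only call (33.3%, under the 44.3% of all genes tested). Tcf7l1, known mostly as a repressor, was at 40.9, 36.7 and 33.0 CPM against 30.8, 31.9 and 38.8 CPM, with overlap and a log2 fold change of 0.12. Tcf7 was below 1 CPM in every library. Lef1 had 1 count in all 6 libraries, in wild-type replicate 3, so that Tcf7l1 and Tcf7l2 were the TCF/LEF genes detected well at this depth. Per length Tcf7l1 (9.40 ± 1.01 RPKM in knockout and 8.63 ± 1.10 in wild type) stood above Tcf7l2 (3.87 ± 0.132 and 2.77 ± 0.385 RPKM). The size of this gap depends on the length used. Merged exons of Tcf7l2 span 8775 bases and its longest transcript 3715, against 3924 and 3042 for Tcf7l1.

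Axin2 and the Naked genes act as inhibitors within the pathway, and they did not move alike. Axin2, the most widely used reporter of beta-catenin signalling, was at 3.68, 2.50 and 5.65 CPM in the knockout and 3.51, 3.34 and 3.31 CPM in the wild type. The wild-type libraries were even and the knockout libraries spread around them, with a log2 fold change of 0.23 ± 0.28 and a 95% interval from -0.40 to 0.85. Knockout replicate 3, which also had the highest macrophage marker sum (362 CPM), was the highest for Axin2. Without this library the log2 fold change was -0.13. A link between Axin2 and the macrophage markers was not tested. Nkd2, which binds Dishevelled proteins, was at 5.72, 4.49 and 8.19 CPM against 15.6, 16.3 and 11.2 CPM, without overlap (log2 fold change -1.22 ± 0.22, edgeR adjusted p = 0.00112). Its relative Nkd1 was at 6.65, 7.27 and 9.06 against 8.48, 10.01 and 11.8 CPM, overlapping, and was not called (edgeR adjusted p = 0.091), but passed without knockout replicate 3 (0.0321).

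Of 16 listed beta-catenin target genes outside the members 10 were tested, and 4 of them fell and 2 rose (60.0% called, against 44.3% of all genes). The cell cycle gene Ccnd1 averaged 32.8 ± 6.04 CPM (knockout) against 102 ± 2.61 CPM (wild type) (log2 fold change -1.64 ± 0.12), beside the fall of 6 of 6 cell division genes. Ccn4 and Ccn5, secreted matricellular proteins, fell by 2.27 and 0.84 on the log2 scale, from 128 ± 31.9 to 26.3 ± 8.12 CPM and from 439 ± 38.2 to 246 ± 10.9 CPM. Apcdd1, a membrane-bound Wnt inhibitor, rose from 14.1 ± 3.38 to 28.3 ± 1.27 CPM (log2 fold change 1.01 ± 0.15), and the R-spondin receptor gene Lgr5 from 3.88 ± 0.761 to 6.22 ± 0.044 CPM. The call for Lgr5 (edgeR adjusted p = 0.0143) ended without wild-type replicate 1 (0.056) or 3 (0.0521). Notum, an enzyme gene whose product removes the lipid from Wnt proteins, was at 0.743 ± 0.159 against 1.55 ± 0.338 CPM, and its fall (edgeR adjusted p = 0.0326) was lost in 8 of 14 other settings, without any library but wild-type replicate 3 among them. Ccn4, Lgr5 and Notum were chosen for mention with their values in view. Myc was not called (log2 fold change -0.18).

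Of 81 further pathway genes, 60 were tested, 20 fell and 13 rose (55.0% called, against 44.3% of all genes tested), with a median log2 fold change of -0.10. By direction, 33.3% fell against 21.7% of all genes, and 21.7% rose against 22.6% of all genes. Lgr5, Notum and Apcdd1 are counted both here and among the beta-catenin targets above, so these sets are not separate. Calls were densest among receptor partners and surface modulators, with 5 lower and 5 higher of 11 (90.9% called). Tspan12, a partner of Fzd4 in norrin signalling, rose from 45.5 ± 7.28 to 142 ± 4.75 CPM, in the same direction as Fzd4. Its log2 fold change was 1.64 ± 0.11 (edgeR adjusted p = 1.27e-06). The norrin gene itself, Ndp, had 6 counts over all 6 libraries and was too low to test. Ptk7, a planar polarity co-receptor, fell from 72.1 ± 11.9 to 19.8 ± 2.63 CPM (log2 fold change -1.86 ± 0.14), and the secreted protein gene Cthrc1 from 72.4 ± 9.47 to 33.7 ± 2.40 CPM. In the planar polarity list 5 fell and 2 rose of 10 tested (70.0% called). Prickle1 fell by 1.07 and Daam2 by 0.68 on the log2 scale, while Celsr3 rose by 1.39. In the first list 8 of the 10 calls and in the second 6 of the 7 held in every other setting that tested the gene. Those that did not were Lgr5, Gpc3 (lost in 3) and Vangl1 (lost in 6), the latter pair chosen for mention on that account.

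Among 19 cytoplasmic genes, 6 fell and 1 rose (36.8% called, under the 44.3% of all genes tested). The Dishevelled-binding genes Dact1 and Dact3 fell by 1.16 and 0.94 on the log2 scale, Gsk3a, for a kinase of the destruction complex, rose by 0.48, and Gsk3b and the 3 Dishevelled genes were not called. Of the 7 calls 6 held in all 14 other settings, and that of Apc2 was lost in 3. Among 15 nuclear cofactors, 3 fell and 4 rose (46.7% called, near the 44.3% of all genes tested), with the smallest p-values for the corepressor gene Tle1 (log2 fold change 0.60 ± 0.15), Pygo1 (-0.62) and Hipk2 (0.78). The calls for Pygo1 and Hipk2 ended without 1 of the libraries, with adjusted p-values up to 0.0909 and 0.0868. Pygo1 lost its call without knockout replicate 2 or wild-type replicate 1, and Hipk2 without knockout replicate 1 or 3. Of the 7 nuclear calls only that of Tle1 held in all 14 other settings, since Nlk lost its call in 12, Pygo2 in 9, Ctbp2 in 8 and Tle3 in 6. Without knockout replicate 1, just 1 of the 4 rises and 1 of the 3 falls kept their call. Of the 9 other ligand genes only Wnt16 could be tested, and of 12 further antagonists 8 could not, with Dkk1, Dkk4 and Sost at 0 counts in each library, which allows up to 0.149 to 0.181 CPM (3 counts, counting error only).

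**Figure D5:**
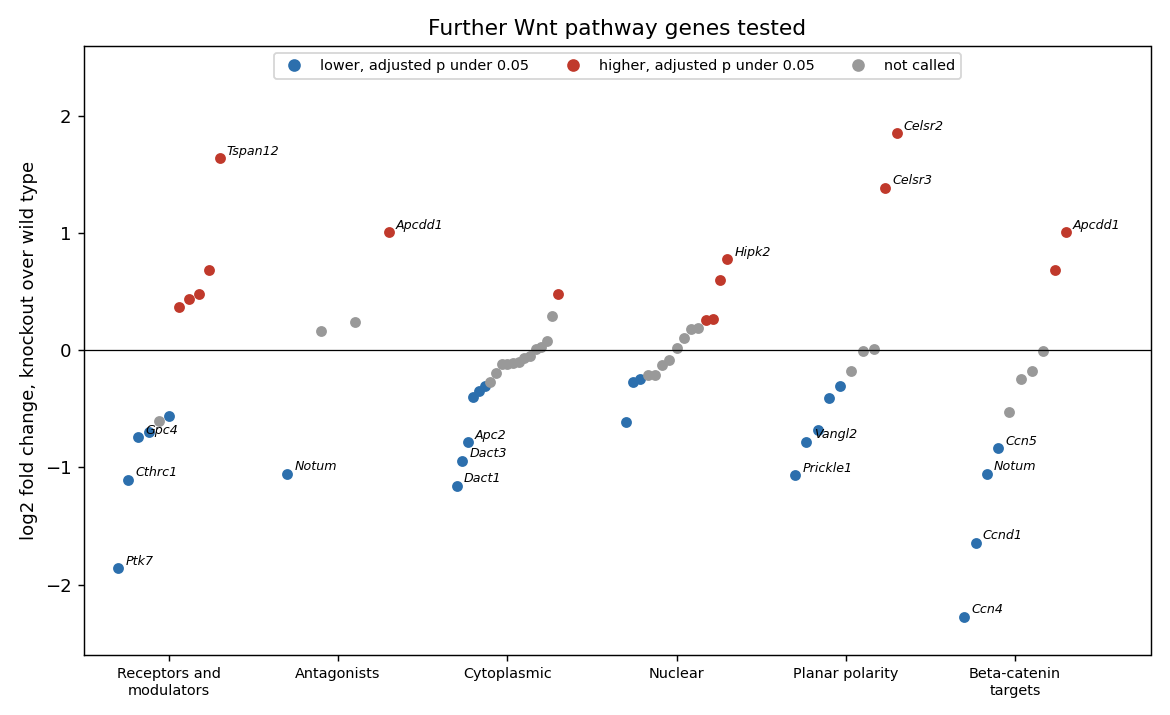
Log2 fold change, knockout over wild type, of further Wnt pathway genes tested and of beta-catenin targets outside the members, by list; each point is a gene, coloured by its call. The largest values are 1.85 for Celsr2 and -2.27 for Ccn4, and the cytoplasmic and nuclear lists have medians of -0.11 and 0.02.

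The letters GGACT, the commonest form of the consensus that carries m6A, were counted in the longest annotated transcript of each gene. The median was 1.17 per kilobase over the 42 tested members and 1.03 over all genes tested. Within the members it was 1.04 for the 18 that fell, 0.985 for the 4 that rose and 1.47 for the 20 not called. Over all genes tested the same split gave 1.03 for those that fell, 1.06 for those that rose and 1.01 for those not called. Sfrp2 and Porcn, which changed in opposite directions, have 0 copies in their longest transcripts. The letters say nothing of whether a transcript was methylated or bound in these cells.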

How the data were processed

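RNA of the 6 cultures was freed of ribosomal RNA and sequenced in pairs of 150 bp, per the labels' protocols. The authors deposited whole-number counts for each Ensembl gene, without normalization, made with STAR and featureCounts on mm10/GRCm38 per the submitters' processing notes. Not given in the sources used here are their versions, the annotation, the strand setting and the handling of multiply matching reads. Symbols and exon lengths came from GENCODE mouse release 21 (53706 of 53801 identifiers matched, the others at most 0.00683% of a library). Exons of 11 neighbouring genes overlap those of members, most on the opposite strand, and took at most 401 counts (Ulk4, beside Ctnnb1).

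The test was that of edgeR 4.0.16 (R 4.3.3): filterByExpr (minimum count 10, minimum total 15; 14816 genes kept), TMM factors, robust legacy quasi-likelihood F test, 2-sided, genotype as the single term, Benjamini-Hochberg adjustment over all genes, threshold 0.05. The SE is the log2 fold change over the square root of F. RPKM is CPM per kilobase of merged exons, which can be longer than any single transcript of the gene. The fit was tested on simulated counts in which far fewer genes changed than were called here. It therefore does not show how the fit behaves when many genes move. The alternatives tried were DESeq2 1.42.0, limma-voom (limma 3.58.1), size factors by RLE or by upper quartile, no low-count filter, 1 CPM in 3 samples, the replicate number or the L0/L1 library suffix as a term, and each library left out. P-values cover the spread between libraries and no difference in isolation or culture that coincided with genotype.

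Members and lists were chosen with earlier results of these data known. All members are accounted for. Values in every library are given for called members of at least 2-fold and for up to 2 other members of highest CPM per group. Up to 3 called genes of smallest p are named per further list; any other name was chosen with its values in view.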

Additional observations from a re-analysis of the deposited data

How the results depend on the processing

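Of the 22 called members, 17 were called in every one of the 14 other settings that gave a value, and the other 5 (Fzd1, Fzd4, Ror1, Sfrp2 and Porcn) are named with their values above. No called member changed direction. Of the 20 members not called, 5 passed in at least 1 setting (Wnt11, Rspo2, Ctnnb1, Axin1 and Nkd1). Members that fell numbered 16 to 21, and those that rose 3 to 5, over all settings. The 21 came under upper-quartile factors, where 3688 of all genes tested were called lower and 2989 higher. With the replicate number as a block, 19 members fell and 4 rose, Wnt11 being the addition, and 3136 genes were higher and 2993 lower against 3342 and 3219 without it. The labels do not say what a number shares. Same-numbered libraries deviated with correlations of -0.13, 0.01 and -0.14, and differently numbered ones with -0.05 to 0.15. With 3 libraries per genotype, these correlations cannot tell whether the numbers pair the samples.

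With 1 library left out, the median log2 fold change ran from -0.46 to -0.20 over the members, from -0.77 to -0.28 over the ligands, from -0.46 to -0.29 over the Frizzled genes and from -0.67 to -0.41 over the co-receptors. Rising Frizzled genes then numbered 0 to 1, falling genes of the destruction complex 0 to 1, falling Naked genes 1 to 2 and rising secretion genes 0 to 1. The Frizzled median was -0.46 under upper-quartile factors, where 2 destruction complex genes fell; under DESeq2 1 fell. With the filter of 1 CPM in 3 samples, which tests fewer members, the ligand median was -0.83, the TCF/LEF median 0.30, and 1 gene of the R-spondin axis rose.

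Members that changed sign were all uncalled. Their leave-one-out log2 ranges were -0.63 to 0.14 for Wnt2b, -0.15 to 0.54 for Wnt4, -0.22 to 0.54 for Wnt9a, -0.15 to 0.14 for Fzd3, -0.12 to 0.17 for Fzd8, -0.017 to 0.26 for Znrf3, -0.39 to 0.40 for Sfrp4, -0.13 to 0.47 for Axin2 and -0.26 to 0.025 for Apc. Upper-quartile factors gave -0.047 for Wnt9a and -0.046 for Fzd8, limma-voom -0.011 for Fzd8 and 0.030 for Sfrp4, and the replicate block -0.0085 for Fzd8. The cause of these changes was not tested. Upper-quartile factors moved the median of all genes by under 0.1 on the log2 scale. Low counts limit Wnt10b, Wnt2, Wnt2b, Wnt4 and Tcf7, each of which had under 10 counts in at least 1 library.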
